A study of Homo sapiens with 18 samples.

Results

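The HOX cluster genes were examined in TPC1 and D11 cells after knockdown of Dicer1. Members were all rows of the expression table whose gene name is HOXA, HOXB, HOXC or HOXD followed by a number, which gave 39 genes out of 58302 rows. A member with a mean value under 10 over the 18 libraries was treated as not measured, and by that rule 3 of the 39 members were measured: HOXA3, HOXA5 and HOXA6. TPC1 is a line from a human papillary thyroid carcinoma, labelled wild type for Dicer1. D11 is a Dicer1 (+/-) line made from TPC1 with CRISPR-Cas9 and grown from a single cell, so D11 is 1 clone, and a difference between the lines cannot be told apart from a difference between clones. Each line was left non-transfected (NT) or received 5 nM of an siRNA, either a negative control (NC) or one against Dicer1 (siDicer), and RNA was taken on day 4. There were 3 libraries in each of the 6 groups. NT and NC of a line together made up its 6 control libraries. The study's methods say in general that experiments were repeated independently, but the labels do not say whether the replicates of a group were separate cultures. The p-values measure the spread between these libraries, which may be technical.

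HOX genes encode homeodomain transcription factors that set position along the body axis of the embryo, and many adult tissues keep a positional HOX code. They lie in clusters on separate chromosomes in the order in which they act, with the genes of the anterior body at the 3′ end of a cluster and those of the posterior body at its 5′ end, and genes at the same place in different clusters (paralog groups) resemble each other most. The clusters also hold miRNA genes of the miR-10, miR-196 and miR-615 families. Dicer cuts the precursors of such miRNAs into their mature form, and a mature miRNA lowers its target mRNAs mainly through sites that pair with its seed, bases 2 to 8. HOX mRNAs are among the best known targets of miR-196 and miR-10.

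The mature sequences of miR-10a-5p, miR-196a-5p, miR-196b-5p and miR-615-3p are shown because their seeds define which members carry a possible site. The clusters also encode miR-10b-5p. They were taken from RefSeq (GRCh38.p14) and are written 5′ to 3′ with the seed in capitals. let-7a-5p, which is encoded elsewhere, is set beside them because its seed overlaps that of miR-196.
miR-10a-5p: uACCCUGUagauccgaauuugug
miR-196a-5p: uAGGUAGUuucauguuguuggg
miR-196b-5p: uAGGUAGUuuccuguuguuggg
miR-615-3p: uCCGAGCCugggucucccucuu
let-7a-5p: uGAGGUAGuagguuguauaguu
MIR10A lies in the HOXB cluster (chr17:48579904-48579926, minus strand). miR-196a-5p comes from MIR196A1 in HOXB (chr17:48632532-48632553, minus strand) and MIR196A2 in HOXC (chr12:53991762-53991783, plus strand). miR-196b-5p comes from MIR196B in HOXA (chr7:27169528-27169549, minus strand), and miR-615-3p from MIR615 in HOXC (chr12:54034010-54034031, plus strand). miR-196a-5p and miR-196b-5p share their seed.

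Letters complementary to each seed were looked for in the annotated 3′ UTR of the canonical transcript of every protein-coding gene of the table, on the transcript strand only. The miR-196 site ACTACCT was found in 8 of 39 members, 20.5%, against 7.01% of 19309 genes, and these 8 members held 14 sites: HOXA5, HOXA7, HOXA9, HOXB1, HOXB6, HOXB7, HOXB13 and HOXC8. The median 3′ UTR was 905 bases in the members and 1067 bases in all genes. HOXA7 held 4 of these sites, HOXC8 held 3 and HOXA9 held 2. The miR-10 site ACAGGGT was found in 3 members, HOXA3 and HOXB3 among them, which is 7.69% against 12.6% of genes. The let-7 site CTACCTC, which overlaps the miR-196 site, was found in 5 members, 12.8% against 9.79% of genes, and the miR-615 site GGCTCGG in HOXB4 and HOXC6, 5.13% against 2.59%. Of the 3 measured members, HOXA3 thus carried a miR-10 site, HOXA5 a miR-196 site and HOXA6 none of the 4 motifs. These matches are descriptions of the letters, and a member with no match may hold another kind of site.

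The sites of HOXA3 and HOXA5 are shown because these are the members whose level could be compared, with those of HOXB3, HOXA7 and HOXC8 for comparison. Each is the mRNA strand, 5′ to 3′, with the bases complementary to the seed in capitals.
HOXA3, miR-10 site: actctttgatcagaaACAGGGTa
HOXB3, miR-10 site: tgacttaacgtgaaaACAGGGTa
HOXA5, miR-196 site: gatatttttattcaaACTACCTa
HOXA7, miR-196 site: acctactcccctaaaACTACCTa
HOXC8, miR-196 site: acactcacaactctaACTACCTg
The HOXA3 stretch lies at chr7:27107608-27107630 and that of HOXB3 at chr17:48549467-48549489, both on the minus strand of GRCh38. The HOXA5 stretch lies at chr7:27141387-27141409 and the HOXA7 stretch at chr7:27154430-27154452 on the minus strand, and that of HOXC8 at chr12:54011494-54011516 on the plus strand. In HOXB1 and HOXB13 the miR-196 and let-7 letters fell on the same stretch, 1 base apart.

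Expression is given as reads per gene scaled to 20 M per library, called the scaled value here, where M stands for 1000000. Libraries held 11.3 to 23.2 M reads as recovered from the table (median 15.9 M), so that a single read counted for 0.861 to 1.77 scaled units. DICER1, the target of the siRNA, was checked first. The TPC1 libraries had scaled values of 1582, 1510 and 1397 (NT), 2492, 1901 and 2366 (NC) and 255, 395 and 246 (siDicer). The D11 libraries had 655, 1157 and 923 (NT), 1536, 1433 and 1407 (NC) and 297, 451 and 277 (siDicer). Each siDicer library was thus below all control libraries of its line, with a log2 change of -2.64 ± 0.21 (SE) in TPC1 and -1.77 ± 0.25 in D11 (limma, adjusted p = 0.000345 and 0.000674). DICER1 was also higher in NC than in NT, by 0.58 in TPC1 and 0.71 in D11, not called (limma, adjusted p = 0.134 and 0.157). Over other settings, NT or NC alone among them, the siDicer change ran from -2.94 to -2.35 in TPC1 and -2.12 to -1.41 in D11. In the control libraries DICER1 was lower in D11 than in TPC1 by a log2 change of -0.68 (adjusted p = 0.00585), and without D11 NT replicate 1 the change was -0.58, just short of the fold minimum. For 12 of the 18 samples the title gives another group than the description, and the description was followed, as DICER1 also separates by it. Of the thyroid markers, PAX8 was at 7361 to 14886, TG at 32 to 124 and FOXE1 at 61 to 214, while NKX2-1 was at 0 in every library and TSHR and SLC5A5 reached at most 2. Of 6 epithelial markers, 3 were measured: the keratins KRT8, at 5715 to 13581, KRT18, at 2908 to 6564, and KRT7, at 150 to 455. KRT19, CDH1 and EPCAM were under the minimum, at 0 to 8. The summed level of 6 fibroblast markers was 186 to 266 in TPC1 control, 385 to 796 in TPC1 siDicer, 55 to 133 in D11 control and 151 to 253 in D11 siDicer libraries, with 3 of the 6 measured. Over the 18 libraries these were COL1A1 (35 to 134), PDGFRB (12 to 167) and LUM (0 to 517). COL1A2 and COL3A1 reached at most 2, and DCN was at 0. The part of this summed level in the results below was not tested.

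HOX transcripts were rare in these cells. In such bulk libraries, fewer cells with a transcript and less of it per cell cannot be told apart. The 39 members together received 859 reads over the 18 libraries, 0.000298% of the 288 M recovered reads, and single libraries held 14 to 84 of them. Of the members, 3 were measured (7.69%), against 30.4% of all rows and 66.5% of protein-coding genes. A further 21 members had a read in at least 1 library but a mean under 10, and 15 members were at 0 in every library, which allows up to 0.0104 reads per M reads (RPM) over the 18 libraries together (3 reads). HOXA3, HOXA5 and HOXA6 were themselves low: 6.07%, 4.74% and 3.62% of the 17716 measured genes had a lower mean.

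The HOXA cluster on chromosome 7 (11 members) took 727 of the 859 HOX reads, 84.6%. The HOXB cluster on chromosome 17 (10 members) took 84 reads, 9.78%, the HOXC cluster on chromosome 12 (9 members) took 44, 5.12%, and the HOXD cluster on chromosome 2 (9 members) took 4. The reads also lay mostly in the lower paralog groups, largely through HOXA3, HOXA5 and HOXA6, which took 594 of the 859 reads, 69.2%. Paralog groups 1 to 7 held 98.1% of the HOX reads in 20 members, and groups 8 to 13 held 16 reads, 1.86%, in 19 members. Group 3 alone held 31.7%, group 5 held 23.7% and group 6 held 23.6%. Within HOXA the levels did not change evenly with position, since HOXA4, which lies between HOXA3 and HOXA5, had a mean of 0.889 and a read in 7 of 18 libraries.

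HOXA3 (ENSG00000105997, GRCh38 chr7:27106184-27152583, minus strand) had the highest mean, 15.3, or 3.55 per kb of annotated exon. HOXA5 (ENSG00000106004, chr7:27141052-27143681) had a mean of 14, or 8.14 per kb, and HOXA6 (ENSG00000106006, chr7:27145396-27150603) a mean of 12.9, or 10.1 per kb, so per length the order of the 3 genes was the opposite. HOXA3 acts in the neural crest and pharyngeal pouches from which thymus, parathyroid and part of the thyroid form, HOXA5 patterns the cervical and thoracic region and is needed for lung and thyroid development, and HOXA6 belongs to the same central group. The annotated HOXA3 gene spans HOXA4, HOXA5 and HOXA6 on the same strand without sharing their exons. It does share exonic sequence with the antisense genes HOXA-AS2 and HOXA-AS3, and HOXA6 with HOXA-AS3, and both share some with an unnamed gene of their own strand. Whether the counting used strand is not given in the sources used here, so HOXA3, HOXA6 and their antisense partners are uncertain where they overlap.

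siDicer libraries were compared with the control libraries of the same line to ask whether loss of Dicer1 changed HOX mRNA levels. None of the 3 measured members was called in TPC1 or in D11, where a call needs a 1.5-fold change or more together with limma's adjusted p under 0.05. Of all 17716 genes tested, TPC1 had 7.67% called and D11 12.3%. At an unadjusted p under 0.05 the count of members was 0 of 3 in each line, against 31.2% and 36.4% of all genes, and voom on the recovered reads also called 0 of 3. These fits had no replicate term. With the replicate number as a block, 1775 genes were called in TPC1 in place of 1358, and still 0 of 3 members in either line. The SE of the log2 change in TPC1 was then 0.36 for HOXA3, 0.29 for HOXA5 and 0.29 for HOXA6.

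In HOXA3, which carries the miR-10 site, the scaled values in TPC1 were 25, 19 and 7 (NT), 18, 20 and 25 (NC) and 13, 17 and 15 (siDicer). The siDicer values lay within the range of the control values. The log2 change, on the log2(value + 1) scale, was -0.23 ± 0.36 (SE) with a 95% interval of -1.02 to 0.56 (limma, adjusted p = 0.704). It was -0.48 without TPC1 NT replicate 3, the lowest control library, and -0.45 against NC alone but -0.015 against NT alone, none of them called (adjusted p = 0.194, 0.284 and 0.988). In D11 the values were 14, 7 and 17 (NT), 12, 28 and 10 (NC) and 2, 15 and 11 (siDicer). The lowest value of the 18 libraries was that of D11 siDicer replicate 1, and the other siDicer libraries fell among the controls. The log2 change was -0.79 ± 0.53 with an interval of -1.93 to 0.35 (limma, adjusted p = 0.302), and it was -0.06 without D11 siDicer replicate 1.

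In HOXA5, which carries the miR-196 site, TPC1 values were 16, 21 and 27 (NT), 16, 14 and 13 (NC) and 15, 21 and 13 (siDicer). The groups overlapped, and the log2 change was -0.10 ± 0.28 with an interval of -0.72 to 0.51 (limma, adjusted p = 0.839). Its direction turned with the control used, to 0.16 against NC alone. In D11 the values were 9, 11 and 20 (NT), 8, 11 and 4 (NC) and 6, 9 and 18 (siDicer). The groups overlapped here too, with a log2 change of 0.06 ± 0.45 and an interval of -0.92 to 1.04 (limma, adjusted p = 0.939). Against NT alone it was -0.31. The D11 interval runs well past 1.5-fold in both directions, so a change of HOXA5 of that size in either direction was not detectable at this depth.

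HOXA6, which holds neither letter match, was outside the rule for named genes and was taken up after its values were seen, since it completes the measured members. TPC1 values were 15, 23 and 25 (NT), 13, 13 and 21 (NC) and 19, 12 and 14 (siDicer). The log2 change was -0.25 ± 0.29 with an interval of -0.88 to 0.38 (limma, adjusted p = 0.594). In D11 the values were 5, 14 and 10 (NT), 6, 11 and 8 (NC) and 4, 8 and 12 (siDicer), with a log2 change of -0.19 ± 0.41 and an interval of -1.08 to 0.70 (limma, adjusted p = 0.776). In both lines siDicer and control values of HOXA6 overlapped.

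**Figure D1:**
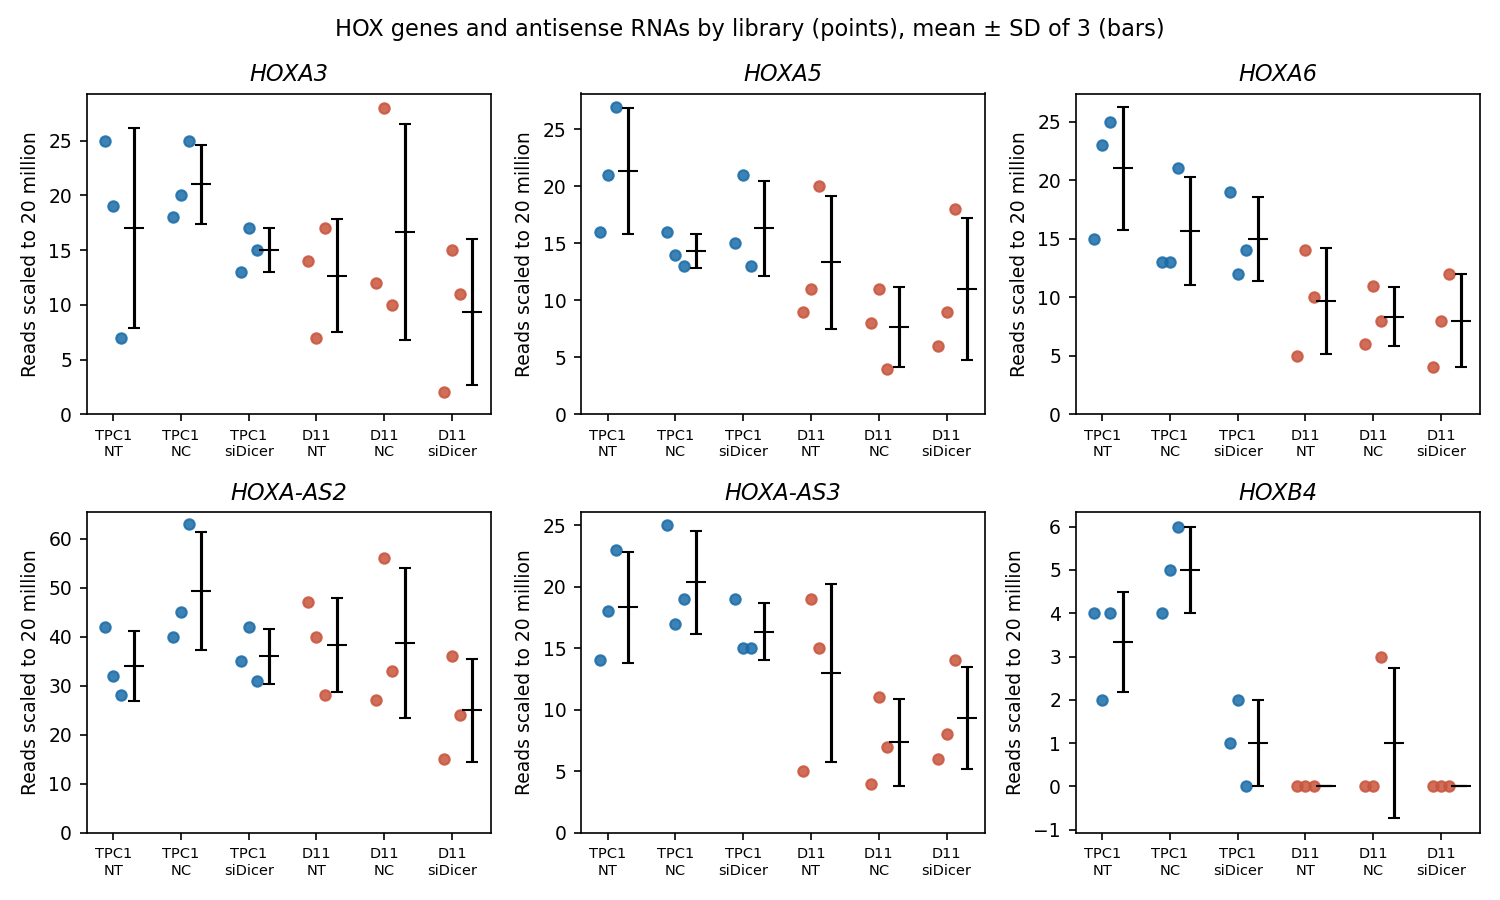
Scaled value (reads per 20 M) of HOXA3, HOXA5, HOXA6, HOXA-AS2, HOXA-AS3 and HOXB4 in each of the 18 libraries, by group; points are libraries, and bars give the mean ± SD of the 3 libraries of a group. In HOXA3, HOXA5 and HOXA6 the siDicer points of a line lie among or close to its NT and NC points, and HOXB4 is at 0 in 8 of 9 D11 libraries.

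The median log2 change of the 3 members was -0.23 in TPC1 and -0.19 in D11, beside -0.04 over all measured genes in each line. The siDicer comparisons of the 2 lines do not share libraries. The interaction of line and siDicer, which asks whether the change differs between D11 and TPC1, called 0 of 3 members. In it limma called 0% of all genes, with 98 genes, 0.553%, at an unadjusted p under 0.05. That share is below what chance alone would give at this threshold, and the fit had no term for NT or NC or for the replicate. The lack of calls thus does not show that the lines respond alike. The interaction was -0.56 (interval -1.97 to 0.85) in HOXA3, 0.17 (-0.96 to 1.30) in HOXA5 and 0.06 (-0.96 to 1.09) in HOXA6, on the log2 scale with D11 minus TPC1. These intervals leave room for sizeable differences between the lines in either direction.

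NC was compared with NT to show the effect of transfection itself. Of the 3 members, 0 were called in either line, with 0.113% of all genes called in TPC1 and 0.26% in D11. With the replicate number as a block, 563 and 290 genes were called in place of 20 and 46, and still 0 members. HOXA3 was at 0.44 (interval -0.60 to 1.48) in TPC1 and 0.31 (-0.76 to 1.39) in D11 on the log2 scale, NC over NT. HOXA5 was at -0.52 (-1.21 to 0.17) and -0.74 (-1.81 to 0.33), and HOXA6 at -0.40 (-1.17 to 0.36) and -0.13 (-1.18 to 0.92). All of these intervals come from fits without the block and include 0. No effect of the control siRNA on a measured member was detectable in those fits at this depth.

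The lines were compared in their 12 control libraries, with NT or NC as a further term, to show how the heterozygous line differs. The 3 members were all lower in D11 by their point estimates, but 0 of 3 were called, where 0.977% of all genes were. Mean scaled values in control libraries were 19.0 ± 6.60 (SD, n = 6) in TPC1 and 14.7 ± 7.37 in D11 for HOXA3, 17.8 ± 5.27 and 10.5 ± 5.32 for HOXA5, and 18.3 ± 5.32 and 9 ± 3.35 for HOXA6. HOXA6 differed most, with a log2 change of -0.97 ± 0.27 (interval -1.56 to -0.39), which limma gave an unadjusted p of 0.00305 and an adjusted p of 0.159. HOXA5 was at -0.80 ± 0.27 (-1.38 to -0.22), unadjusted p = 0.0104 and adjusted p = 0.293 in limma, and HOXA3 at -0.38 ± 0.33 (-1.09 to 0.34), adjusted p = 0.709. Thus 2 of 3 members had an unadjusted p under 0.05, against 9.87% of all genes, and none passed the adjustment. With the replicate number as a block HOXA6 was called lower (limma, adjusted p = 0.0309), 1 of 3 members, with 351 genes called in place of 173. The TPC1 and D11 control values overlapped in all 3 genes, by 13 against 14 in HOXA6, while they did not overlap in 1.25% of measured genes.

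**Figure D2:**
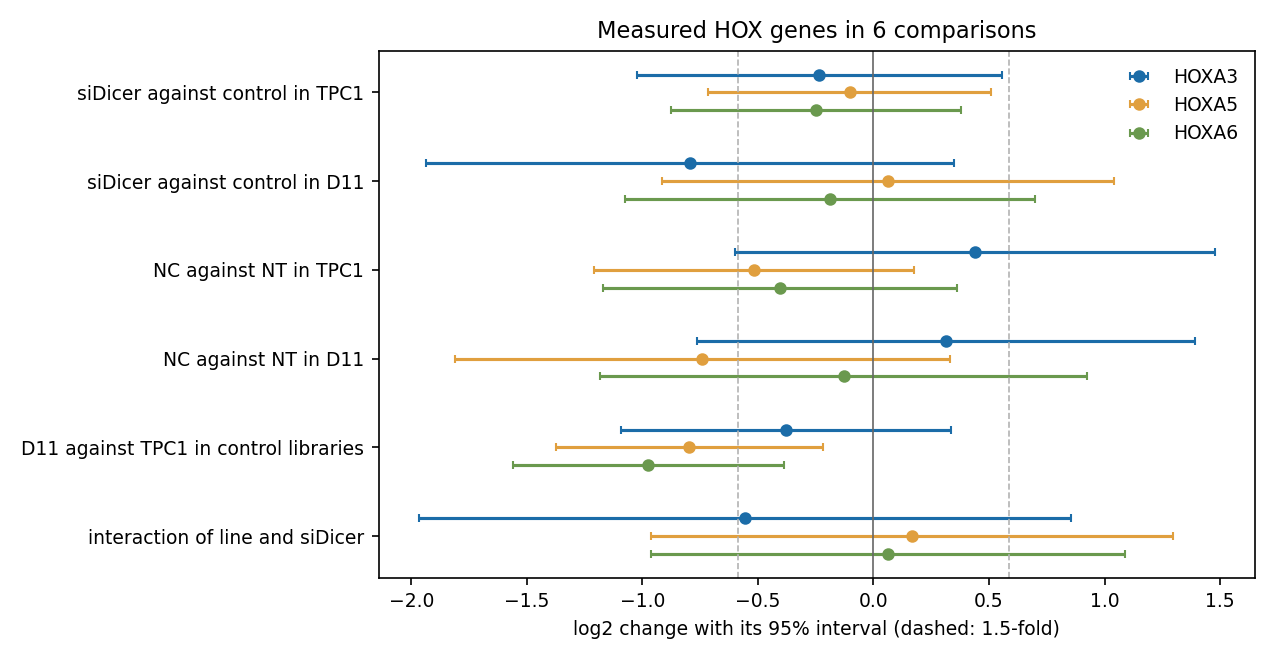
Log2 change of HOXA3, HOXA5 and HOXA6 in each of the 6 comparisons (rows), as the limma estimate (point) with its 95% interval (line). The fits had no replicate term, and the dashed lines mark a 1.5-fold change. All intervals cross 0 except those of HOXA5 (-1.38 to -0.22) and HOXA6 (-1.56 to -0.39) in D11 against TPC1.

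Reads summed over all members are given as a description. In the control libraries the 39 members summed to 3.43 to 4.52 RPM in TPC1 and 2.03 to 3.29 RPM in D11, which do not overlap. The 1.25% of measured genes without overlap refers to single genes and is no background for a sum over 39 members. The siDicer libraries had 3.18, 3.31 and 3.00 RPM in TPC1, all below its control sums, and 0.891, 1.76 and 2.26 RPM in D11, which overlapped its control sums. Pooled over libraries, TPC1 had 4.01 RPM in control (95% exact Poisson interval 3.61 to 4.43) and 3.16 (2.73 to 3.63) with siDicer. D11 had 2.44 (2.13 to 2.80) and 1.65 (1.30 to 2.06). This lower sum with siDicer was noted after the values were seen and was not tested over libraries. No background from sums of other low genes was computed. The reads of TPC1 siDicer replicates 1 and 3 are approximate, since 1 read counts for 0.861 and 0.938 units there. These libraries were also the deepest, at 23.2 and 21.3 M reads. Over the control libraries the HOXA cluster gave 316 reads in TPC1, 3.35 RPM (95% exact Poisson interval 2.99 to 3.74), and 175 reads in D11, 2.03 RPM (1.74 to 2.35). These intervals cover counting error only. The HOXB cluster gave 50 reads in TPC1, 0.53 RPM (0.393 to 0.699), and 8 in D11, 0.0927 RPM (0.04 to 0.183). The HOXC cluster went the other way, with 11 reads in TPC1, 0.117 RPM (0.0582 to 0.209), and 25 in D11, 0.29 RPM (0.187 to 0.427). HOXD gave 1 and 3 reads. The intervals of the lines did not overlap for HOXA and HOXB and overlapped slightly for HOXC. This split by cluster was noted after the values were seen and was not tested over libraries.

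**Figure D3:**
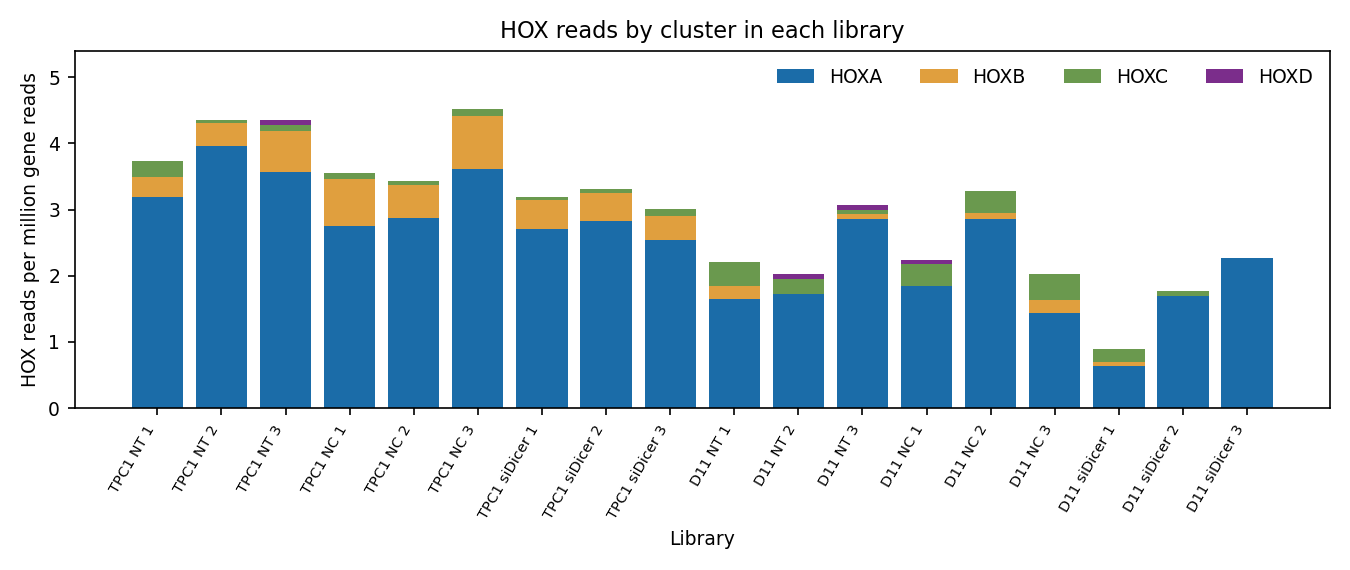
HOX reads in RPM in each of the 18 libraries, stacked by cluster (HOXA, HOXB, HOXC, HOXD). HOXA makes up most of each bar, HOXB is visible in all 9 TPC1 libraries and in 5 of 9 D11 libraries, and D11 siDicer replicate 1 has the lowest bar at 0.891 RPM.

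Among the members below the minimum, HOXB3 and HOXB4, neighbours that act in the hindbrain and in blood progenitors, carried most of the HOXB reads. They and the other members named here without being measured were picked after their values were seen. HOXB3 had a read in 9 of 9 TPC1 libraries and in 3 of 9 D11 libraries, with scaled values of 3 to 9 in TPC1 and 0 to 4 in D11. HOXB4 had a read in 8 of 9 TPC1 libraries and in 1 of 9 D11 libraries. In control libraries its values were 4, 2 and 4 in TPC1 NT, 4, 5 and 6 in TPC1 NC, 0 in all 3 D11 NT libraries, and 0, 0 and 3 in D11 NC. The control values of HOXB4 in the lines overlapped only through that single D11 NC library, replicate 3. The 17 TPC1 reads and 2 D11 reads of HOXB4 in control libraries correspond to 0.18 (0.105 to 0.288) and 0.0232 (0.00281 to 0.0837) RPM. In siDicer libraries HOXB4 was at 1, 2 and 0 in TPC1 and at 0 in all 3 D11 libraries.

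The other unmeasured members are given by their range. HOXA7, which carries 4 miR-196 sites, had a mean of 3.94 and a read in 17 of 18 libraries, with values of 0 to 6 in TPC1 and 2 to 7 in D11. HOXA2, a hindbrain gene, had a mean of 3.11. HOXC6 and HOXC4, at 1.72 and 1.11, led the HOXC cluster, and 7 of the 36 unmeasured members had a mean of at least 1. The established miR-196 targets HOXB8 and HOXD8 were at 0 in every library, and HOXC8 had a read in 1. The established miR-10 target HOXD10 was at 0 in every library. For these targets, then, siDicer and control libraries could not be compared at this depth.

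Of 24 noncoding RNAs of the clusters found in the table, 2 were measured, HOXA-AS2 and HOXA-AS3, both transcribed against HOXA genes. The precursor genes MIR10A, MIR10B, MIR196A1, MIR196A2, MIR196B and MIR615 had means of 0 to 0.111, in libraries selected for polyadenylated RNA that do not capture mature miRNAs. HOXA-AS2 (chr7:27107777-27134302, plus strand) had the highest level of the HOX genes and listed noncoding RNAs, at 28 to 63 in TPC1 control, 31 to 42 in TPC1 siDicer, 27 to 56 in D11 control and 15 to 36 in D11 siDicer libraries. Its log2 change with siDicer was -0.17 (interval -0.72 to 0.38) in TPC1 and -0.64 (-1.30 to 0.03) in D11, where limma gave an adjusted p of 0.153. HOXA-AS3 (chr7:27129977-27155928, plus strand) was at 14 to 25 in TPC1 control and 4 to 19 in D11 control libraries. In D11 against TPC1 it was at -1.02 ± 0.33 on the log2 scale (-1.73 to -0.31, limma adjusted p = 0.262), beside -0.38 for HOXA3, -0.80 for HOXA5 and -0.97 for HOXA6, whose loci it crosses on the other strand. HOXA4 and HOXA7, which HOXA-AS3 also crosses, lie below the minimum. In a fit of every gene with a read they were at -0.92 and 0.24 in D11 against TPC1, neither called. HOXA-AS2 was at -0.11 (-0.59 to 0.36) in the same comparison. With siDicer HOXA-AS3 was at -0.21 (-0.73 to 0.31) in TPC1 and -0.01 (-1.04 to 1.03) in D11, and the D11 direction turned under other scalings (0.03 with median-ratio scaling). No noncoding RNA of the clusters was called in these comparisons.

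The partners of HOX proteins were well expressed beside them. Of 9 TALE cofactors (PBX, MEIS and PKNOX genes, whose proteins bind DNA together with HOX proteins), 7 were measured. PBX3 was at 4642 to 6036, PBX2 at 1050 to 1632 and MEIS1, the lowest, at 38 to 75, whereas PBX4 was at 0. Per kb of exon PBX3 was at 1097, against 10.1 for HOXA6, the highest HOX gene on that scale. With siDicer 0 of 7 cofactors were called in either line, and the median log2 change was 0.05 in TPC1 and 0.03 in D11. PBX2 was at 0.42 ± 0.09 in TPC1 and 0.34 ± 0.09 in D11, with a limma adjusted p of 0.0159 and 0.0161, below the fold minimum, and it was picked after its values were seen. All 3 siDicer values of PBX2 were above its 6 control values in each line. The share of all genes with such a gap was not computed, so the gap cannot be called particular to PBX2. With siDicer, 31.2% of all genes in TPC1 and 36.4% in D11 had an unadjusted p under 0.05 in limma.

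Of 20 regulators of the clusters (trithorax, CDX and retinoic acid receptor genes), 16 were measured, with CDX1 and CDX4 at 0. With siDicer 1 was called higher and 1 lower in each line, and the median log2 change was 0.05 in TPC1 and -0.02 in D11. ASH2L, a core subunit of the H3K4 methyltransferase complexes, fell in TPC1 from a control range of 1070 to 1179 to a siDicer range of 608 to 900, a log2 change of -0.65 ± 0.12 (limma, adjusted p = 0.00649), and in D11 from a range of 1021 to 1121 to one of 621 to 751, -0.65 ± 0.09 (adjusted p = 0.00065). KDM6B, which removes the repressive H3K27 methyl marks, rose in TPC1 from a control range of 313 to 508 to a siDicer range of 463 to 677, 0.61 ± 0.18 (adjusted p = 0.0466), and in D11 from a range of 203 to 526 to one of 507 to 731, 0.77 ± 0.23 (adjusted p = 0.0311). The KDM6B values overlapped between siDicer and control in both lines. Its call was lost in TPC1 without any one of NT, NC or siDicer replicates 1 and 3 (adjusted p 0.0738 to 0.207) and in D11 without NT replicate 3 or any siDicer replicate (0.0505 to 0.157). The ASH2L call was lost in TPC1 without siDicer replicate 1 (log2 change -0.53) or siDicer replicate 3 (adjusted p = 0.0525).

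Of 18 protein-coding neighbours of the clusters found in the table, 13 were measured, against 3 of the 39 HOX genes between them. EVX1 and EVX2, the homeobox genes at the ends of HOXA and HOXD, were at 0. HNRNPA1 beside HOXC reached 13634 to 22112. With siDicer 0 were called higher and 1 lower in TPC1, and 1 higher and 0 lower in D11, with median log2 changes of 0.15 and 0.07. CBX5, which encodes the heterochromatin protein HP1 alpha beside HOXC, fell in TPC1 from a control range of 6765 to 8353 to a siDicer range of 4520 to 5870, -0.61 ± 0.10 (limma, adjusted p = 0.00393), and without TPC1 siDicer replicate 1 it was at -0.52, short of the fold minimum. In D11 CBX5 was at -0.55 (adjusted p = 0.0139 in limma), also short of it. CALCOCO1, also beside HOXC, rose in D11 from a control range of 372 to 686 to a siDicer range of 761 to 900, 0.70 ± 0.17 (limma, adjusted p = 0.01), and without D11 siDicer replicate 3 the adjusted p was 0.0598. In TPC1 CALCOCO1 was at 0.65 (limma, adjusted p = 0.0848), and it was called higher there with the replicate number as a block (adjusted p = 0.0276). Counts called in these lists with siDicer, 0 of 7, 2 of 16 and 1 of 13 in each line, stand beside a background of 7.67% in TPC1 and 12.3% in D11.

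**Figure D4:**
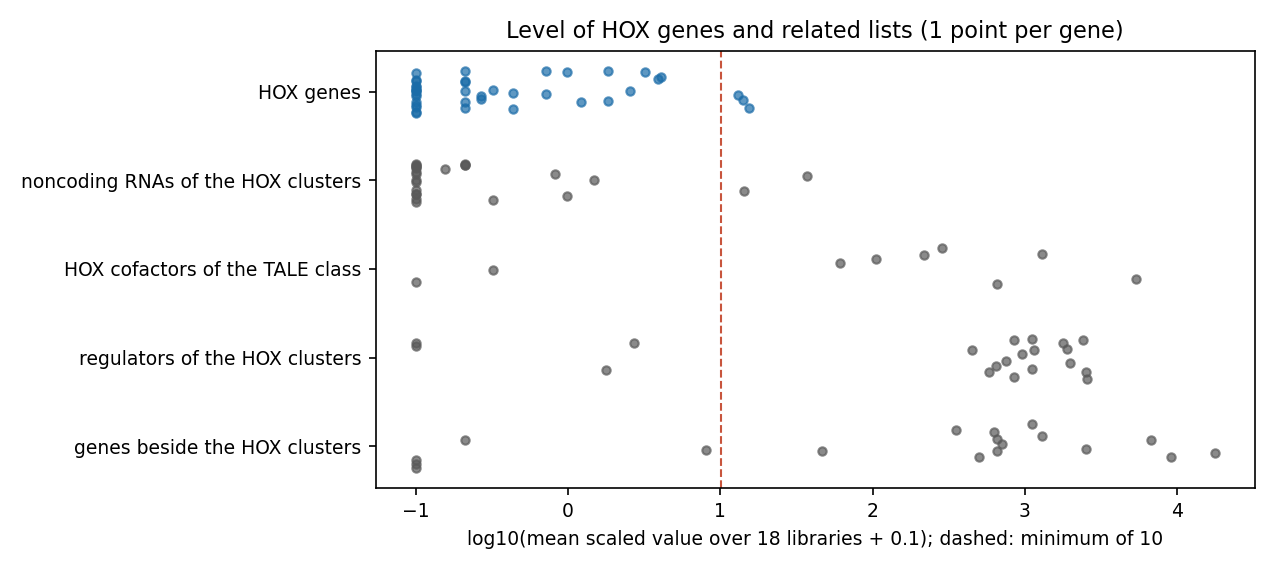
Mean scaled value over the 18 libraries, as log10(mean + 0.1), of each HOX gene and of each gene in the 4 related lists (1 point per gene; vertical spread within a row has no meaning); the dashed line marks the minimum mean of 10. Right of the line lie 3 of 39 HOX genes and 2 of 24 cluster noncoding RNAs, beside 7 of 9 cofactors, 16 of 20 regulators and 13 of 18 neighbours.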

How the data were processed

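TPC1 and D11 mRNA was sequenced in 18 libraries (TruSeq stranded, poly-A selected). Reads were aligned to GRCh38 with STAR 2.5.3a and counted with HTSeq 0.9.1 on Ensembl 90 genes by the authors, who scaled each library to 20 M reads. The deposited values are therefore a score, reads scaled and rounded up, and not counts, so a count test was not used. In 16 libraries 99.8% to 99.9% of values above 0 equalled a whole number of reads times the value of 1 read, rounded up. A read counts for less than 1 unit in the other 2 (TPC1 siDicer replicates 1 and 3), where this check is void and reads are approximate. The strand setting of counting is not given in the sources used here.

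limma 3.58.1 in R 4.3.3 (lmFit, eBayes with trend) was fitted to log2(value + 1) of the 17716 genes with a mean of at least 10 over 18 libraries, with Benjamini-Hochberg adjustment over all of them; on this scale fold changes of low genes are understated. A call needed a 1.5-fold change or more and limma's adjusted p under 0.05. The fit was tested on simulated data. siDicer was compared with NT and NC together, as in the study. Values with full statistics were given for members called in any comparison, the 2 highest measured members of each cluster and the measured established targets of miR-10 and miR-196; from other lists, for members called in a siDicer comparison; and for DICER1. Outside this rule, statistics are also given for HOXA6, HOXA-AS2, HOXA-AS3, PBX2 and some unmeasured members. Levels of other list members are given as ranges, chosen after the values were seen. Members and lists were chosen with earlier results of these data known. Gene positions, exons and 3′ UTRs came from GENCODE 44 on GRCh38, matched by identifier (39 of 39 members); miRNAs from RefSeq. Libraries with the same replicate number deviated together within each line (9 of 9 pairs over 0.1 in TPC1, 0.123 to 0.568, and 9 of 9 in D11, 0.112 to 0.544). Of pairs with different numbers, 4 of 18 were over 0.1 in TPC1 (up to 0.209) and 4 of 18 in D11 (up to 0.222). Between lines 23 of 27 same-number pairs were over 0.1. Numbers were thus taken to pair libraries in every case within a line and not in every case between lines. The estimates, intervals and p-values given above nevertheless come from fits with no replicate term, except where the block is named. Alternatives were other scalings, filters and pseudocounts, NT or NC alone as the control, the replicate block, 1 fit of 18 libraries, voom on recovered reads and leaving out each library. Values of some single genes are not reported here.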

Additional observations from a re-analysis of the deposited data

Results flagged for a closer look

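HOXB4 lies below the minimum mean and entered none of the tests of the report, where its reads are only described, and it stood out in the fit that took in every gene with a read. In D11 against TPC1 control libraries its log2 change on the log2(value + 1) scale was -1.99 (limma, adjusted p = 0.0172, the call of 1 of 23 members tested, beside 206 of 35771 genes), from 17 reads in 6 TPC1 libraries and 2 reads in 6 D11 libraries. The fitted size depends on the pseudocount and is no bound. HOXB3, its neighbour, was at -1.94 with an adjusted p of 0.0836 in the same fit. In siDicer against control, with every gene with a read taken in, HOXB4 was not called. It was at -1.46 in TPC1 (limma, adjusted p = 0.0843) and -0.33 in D11 (adjusted p = 0.737). In the control libraries of a line, no library of the 3 measured members, HOXA-AS2, HOXA-AS3, DICER1 or the summed HOX reads stood apart from the other 5 by Dixon's test at 95% (14 tests).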

How the results depend on the processing

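The count of members called was 0 in the 6 comparisons and stayed 0 under the alternatives run, except in D11 against TPC1. There it was 1 with the replicate block (HOXA6, log2 change -0.97, adjusted p = 0.0309, with 351 genes called in place of 173) and 1 of 23 with no low filter (HOXB4), beside 206 of 35771 genes. Across lines 23 of 27 same-number pairs correlated over 0.1, so libraries of a number mostly deviated together, though not in every pair. Pairs of different numbers across lines were not counted. The cause of the HOXA6 call was not tested. The block changed no other call of a HOX gene or antisense RNA. No setting with a mean of at least 100 could be given, since no member reaches it. Leaving out each library in turn gave a count of 0 in all 6 comparisons.

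These log2 changes, none of them called, turned direction. HOXA5 with siDicer was 0.16 against NC alone in TPC1 and -0.31 against NT alone in D11. HOXA-AS2 was 0.089 against NT alone in TPC1, and 0.16 with NT alone in D11 against TPC1. HOXA-AS3 with siDicer in D11 was 0.029 with median-ratio scaling, 0.052 with quantile normalization, 0.0051 with a pseudocount of 0.1 and 0.33 against NC alone. The interaction of HOXA6 was -0.075 against NC alone.

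Leaving out 1 library, HOXA5 with siDicer ranged from -0.29 to 0.037 in TPC1 and -0.33 to 0.39 in D11, HOXA6 in D11 from -0.51 to 0.18 and HOXA-AS3 in D11 from -0.31 to 0.24. In NC against NT, HOXA3 ranged from -0.064 to 0.79 in TPC1 and -0.11 to 0.59 in D11, and HOXA6 in D11 from -0.50 to 0.17. HOXA-AS2 in D11 against TPC1 ranged from -0.21 to 0.013. The interaction ranged from -1.03 to 0.18 in HOXA3, -0.23 to 0.49 in HOXA5 and -0.26 to 0.43 in HOXA6. Of other genes, the DICER1 call in D11 against TPC1 was lost with NT alone (-0.75, adjusted p = 0.423) and NC alone (-0.62, 0.11). In TPC1 with siDicer, KDM6B was lost with NT alone (0.67, 0.0869), NC alone (0.55, 0.118), no low filter (0.61, 0.0628) and 1 fit of 18 libraries (0.61, 0.0596), ASH2L with NT alone (-0.60, 0.0545) and CBX5 with median-ratio scaling (-0.56) and NT alone (-0.55). CALCOCO1 was gained in TPC1 with the replicate block (adjusted p = 0.0276), 1 fit of 18 libraries (0.0408), NC alone (0.0478) and without NT replicate 2 (0.0136). In D11, NC alone lost KDM6B (0.59, 0.0672) and CALCOCO1 (0.56) and gained CBX5 (-0.70), which was also gained with no fold minimum and without NT replicate 1 or siDicer replicate 2. HOXA6 in D11 against TPC1 kept its direction, at -1.09 to -0.80 leaving out 1 library (limma, adjusted p 0.122 to 0.334). Over the 12 other settings it was at -1.11 to -0.57 (adjusted p 0.0309 to 0.999975). With 1 read worth 0.861 to 1.77 units, depth limits every HOX value, and 3 reads of a single library correspond to 2.58 to 5.32 units.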
